A study of Mus with 96 samples.

Results

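The carboxylesterase (Ces) family was followed in mouse liver through 10 genes, Ces1b, Ces1c, Ces1d, Ces1e, Ces1f, Ces1g, Ces2a, Ces2c, Ces3a, and Ces3b, taken from the count table by gene name. They are 10 of the 20 genes named Ces among the 55487 genes of the table, and all 10 are among the 15548 genes that were tested, those with 100 or more counts summed over the libraries. The members were selected on their genotype differences in these livers, so genotype values are given as a description with no p. Livers of 96 C57BL/6J mice were measured, 24 for each combination of genotype and diet. Their age of 8 to 10 weeks is stated with housing and acclimation, and no separate age at collection is given. Mice labelled Hep-Bmal1KO were AlbCre/+/Bmal1flx/flx, in which Cre driven by the albumin promoter removes Bmal1 in hepatocytes, and their littermates labelled Hep-Bmal1WT were Alb+/+/Bmal1flx/flx, so both carried the floxed allele, none carried Cre without it, and Cre and the deletion cannot be told apart. Both genotypes received normal chow (NC) or cdHFD, a high-fat diet deficient in choline that is used to produce metabolic dysfunction–associated steatohepatitis (MASH), for 2 weeks. In each of the 4 groups, 4 mice were taken at each of ZT 2, 6, 10, 14, 18, and 22, where ZT counts hours from lights on, and sexes were balanced except for 1 female among the Hep-Bmal1WT mice on cdHFD at ZT14.

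Carboxylesterases are serine hydrolases that split ester and amide bonds. Most of them are retained in the endoplasmic reticulum of the hepatocyte, where they clear ester drugs and toxins and also act on triacylglycerol, cholesteryl esters, and retinyl esters, and a few are secreted into plasma. In the mouse the genes stand in tandem arrays of close relatives, and family members are known for differences between male and female liver.

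Each library held the 3′ portion of mRNA made by BRB-seq, in which samples are barcoded and pooled early, with 1861740 to 9718615 reads counted on genes per liver and a median of 6412078. Levels are given as CPM, counts scaled by TMM to a common library size, and differences as log2 fold changes from edgeR. Arntl, the listed name of Bmal1, separated the labels at only some times: on NC it averaged 20.2 ± 4.65 CPM at ZT2 in livers labelled Hep-Bmal1WT against 9.83 ± 2.55 CPM in livers labelled Hep-Bmal1KO, and 0.748 ± 0.463 against 5.77 ± 3.81 CPM at ZT10 (SD, n = 4 each). Of 10 clock genes on NC, the Hep-Bmal1KO label had 3 higher and 2 lower. Placed by clock genes and by other genotype-dependent genes, 7 of the 96 livers lay nearer the other label, 4 of them labelled Hep-Bmal1WT and 3 labelled Hep-Bmal1KO. No liver was moved, genotype is always that of the label, and the main genotype results are also given without these 7 livers. Library names run in consecutive blocks by group, so position in the library set and group cannot be told apart.

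All 20 Ces genes lie on chromosome 8 in GRCm38.p6, the assembly of mm10. The Ces1 members follow each other as Ces1b (ENSMUSG00000078964, 93056725 to 93080017), Ces1c (ENSMUSG00000057400, 93099015 to 93131283), Ces1d (ENSMUSG00000056973, 93166072 to 93197804), Ces1e (ENSMUSG00000061959, 93201218 to 93229631), Ces1f (ENSMUSG00000031725, 93256236 to 93279766), and Ces1g (ENSMUSG00000057074, 93302369 to 93337209). A separate array holds Ces2a (ENSMUSG00000055730, 104734003 to 104741634), Ces2c (ENSMUSG00000061825, 104847068 to 104854483), Ces3a (ENSMUSG00000069922, 105048576 to 105061928), and Ces3b (ENSMUSG00000062181, 105083733 to 105093929). The closest pair of members is Ces1d and Ces1e, 3.41 kb apart. How reads that align to more than 1 paralog were treated is not stated, and the table's entries for ambiguous and multiply aligned reads are 0 in every library, so the split of reads between neighbours is uncertain and their directions are compared below.

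The 10 members together made up 7800 ± 917 CPM in livers labelled Hep-Bmal1WT on NC, 6816 ± 1021 CPM in livers labelled Hep-Bmal1KO on NC, 2935 ± 520.4 CPM in livers labelled Hep-Bmal1WT on cdHFD, and 2242 ± 491 CPM in livers labelled Hep-Bmal1KO on cdHFD (SD, n = 24 each). Ces1c, an esterase that is secreted into plasma, supplied 48.1% of the family's CPM in the Hep-Bmal1WT group on NC and 74.6% in the Hep-Bmal1KO group on cdHFD. In the Hep-Bmal1WT group on NC the order of mean CPM was Ces1c (3755), Ces1d (1177), Ces3a (1138), Ces2a (623), Ces3b (447), Ces1f (323), Ces1g (134), Ces1e (91.9), Ces1b (84.01), and Ces2c (27.8). Ces1d with Ces3a and Ces1e with Ces1b are neighbours in this order whose difference is smaller than the SD of either gene, between 23.1 and 486 CPM. In the Hep-Bmal1KO group on cdHFD, Ces1c averaged 1672 CPM and Ces3a, the next, 199 CPM, and Ces2c stayed lowest at 8.20 CPM. Since only the 3′ portion was read, CPM does not grow with transcript length, and a count also depends on how well each gene's 3′ end is annotated.

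**Figure D1:**
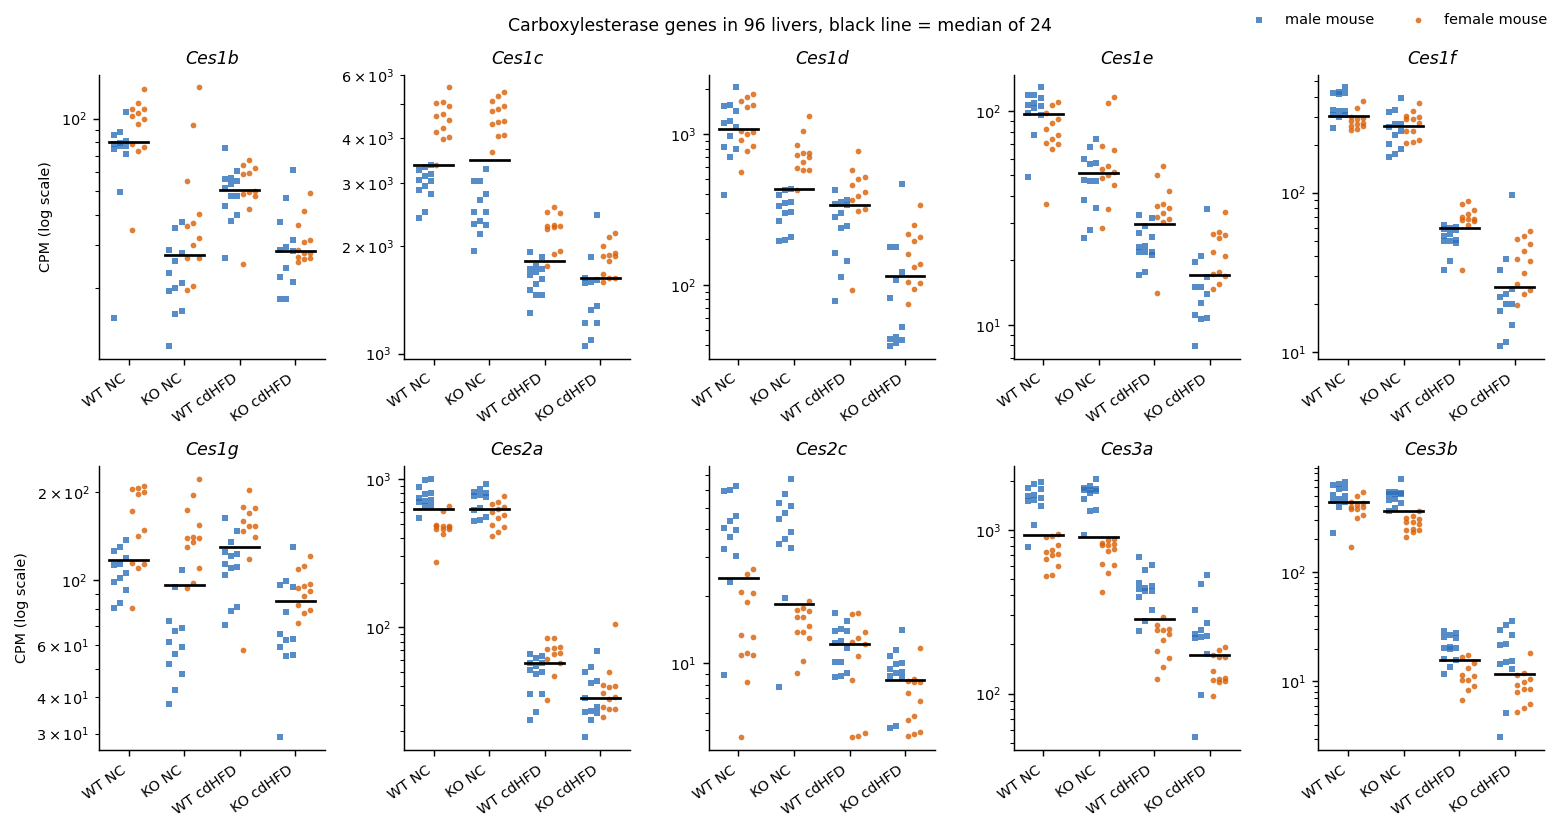
CPM of the 10 members in each of the 96 livers on log axes, with 1 panel per gene, the 4 groups along the horizontal axis, blue squares for males, orange circles for females, and a black line at the median of 24 livers. Ces1f, Ces2a, and Ces3b have all cdHFD livers below all NC livers of the same genotype, and Ces1c and Ces3a separate by sex in opposite directions on NC.

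The diet comparison asked how the family's mRNA differs after 2 weeks on cdHFD. In livers labelled Hep-Bmal1WT, 9 of the 10 members were lower on cdHFD by edgeR's quasi-likelihood test, adjusted over the 15548 genes after Benjamini and Hochberg, beside 55.4% of all genes tested that changed, 26.8% lower and 28.6% higher. In livers labelled Hep-Bmal1KO, 8 of 10 were lower, beside 61.6% of all genes tested that changed, 29.4% lower and 32.3% higher. The median log2 fold change of the 10 members was -1.69 in the Hep-Bmal1WT groups and -1.86 in the Hep-Bmal1KO groups, against 0.01 and 0.02 over all genes tested. No member rose in either genotype.

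Ces3b, a liver carboxylesterase of the third subfamily, fell furthest. In livers labelled Hep-Bmal1WT it ran from 169 to 672 CPM on NC with a median of 436, and from 6.76 to 28.7 CPM on cdHFD with a median of 15.8. In livers labelled Hep-Bmal1KO it ran from 209.8 to 713 CPM on NC and from 3.09 to 35.9 CPM on cdHFD. Every cdHFD liver was below every NC liver of its genotype. The log2 fold change was -4.73 (SE 0.15, adjusted p = 4.03e-28) in the Hep-Bmal1WT groups and -4.79 (SE 0.24, adjusted p = 1.81e-21) in the Hep-Bmal1KO groups in edgeR's test, and group means differed 26.8-fold and 26.7-fold. Its neighbour Ces3a, of the same subfamily, fell less, from a median of 931 CPM on NC (522 to 1971) to 286 CPM on cdHFD (123 to 678) in the Hep-Bmal1WT groups, with log2 fold changes of -1.75 (SE 0.19) and, in the Hep-Bmal1KO groups, -2.60 (SE 0.22). The median ratio of Ces3a to Ces3b within a liver was therefore 2.49 on NC and 19.5 on cdHFD in the Hep-Bmal1WT groups, and 2.95 and 16.02 in the Hep-Bmal1KO groups.

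Ces2a, a hydrolase of acylglycerols and ester drugs, was the next to fall. It ran from 277 to 1001 CPM on NC and from 23.6 to 85.2 CPM on cdHFD in livers labelled Hep-Bmal1WT, and from 409 to 928 CPM and 18.2 to 104.7 CPM in livers labelled Hep-Bmal1KO. No liver on cdHFD reached the lowest NC liver of its genotype. Group means differed 11.1-fold and 16.6-fold, with log2 fold changes of -3.46 (SE 0.15, adjusted p = 1.98e-23) and -4.07 (SE 0.15, adjusted p = 2.34e-26) in edgeR's test. Ces2c, a lipase of liver and intestine from the same subfamily and the least abundant member, fell by 1.24 (SE 0.22) and 1.73 (SE 0.21) on the log2 scale, with ranges of 4.66 to 62.5 CPM on NC and 4.68 to 16.9 CPM on cdHFD in the Hep-Bmal1WT groups that overlapped.

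Among the Ces1 members, Ces1f, a triacylglycerol hydrolase, showed the widest gap. It ran from 247 to 457 CPM on NC and from 32.7 to 89.2 CPM on cdHFD in livers labelled Hep-Bmal1WT, and from 168 to 394 and 10.9 to 97.2 CPM in livers labelled Hep-Bmal1KO, with no overlap between diets in either genotype. Its log2 fold changes were -2.41 (SE 0.10) and -3.02 (SE 0.18). The 3 members whose diets did not overlap in both genotypes were thus Ces1f, Ces2a, and Ces3b, where 1.54% of all genes tested had all 24 cdHFD livers below all 24 NC livers in the Hep-Bmal1WT groups and 2.55% in the Hep-Bmal1KO groups, and 2.20% and 3.19% had the reverse.

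The other Ces1 members spanned smaller changes. Ces1d, the hydrolase that frees stored triacylglycerol for lipoprotein assembly, fell by 1.79 (SE 0.17) on the log2 scale in the Hep-Bmal1WT groups and by 2.00 (SE 0.25) in the Hep-Bmal1KO groups, and Ces1e, the esterase known as egasyn that holds beta-glucuronidase in the endoplasmic reticulum, fell by 1.62 (SE 0.13) and 1.49 (SE 0.15). The secreted Ces1c fell by 0.97 (SE 0.09) and 1.11 (SE 0.12). Ces1b fell in the Hep-Bmal1WT groups by 0.70 (SE 0.14, adjusted p = 2.69e-05 in edgeR's test), while in the Hep-Bmal1KO groups its log2 fold change was -0.09 (SE 0.19, adjusted p = 0.715 in edgeR's test). Ces1g, a triacylglycerol hydrolase of the endoplasmic reticulum, was not called in either genotype, with -0.01 (SE 0.12, adjusted p = 0.929) and -0.30 (SE 0.17, adjusted p = 0.139) in edgeR's test. Its ranges of 80.3 to 209.6 CPM on NC and 57.98 to 203.7 CPM on cdHFD in the Hep-Bmal1WT groups lay over each other, although its neighbour Ces1f did not overlap at all.

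**Figure D2:**
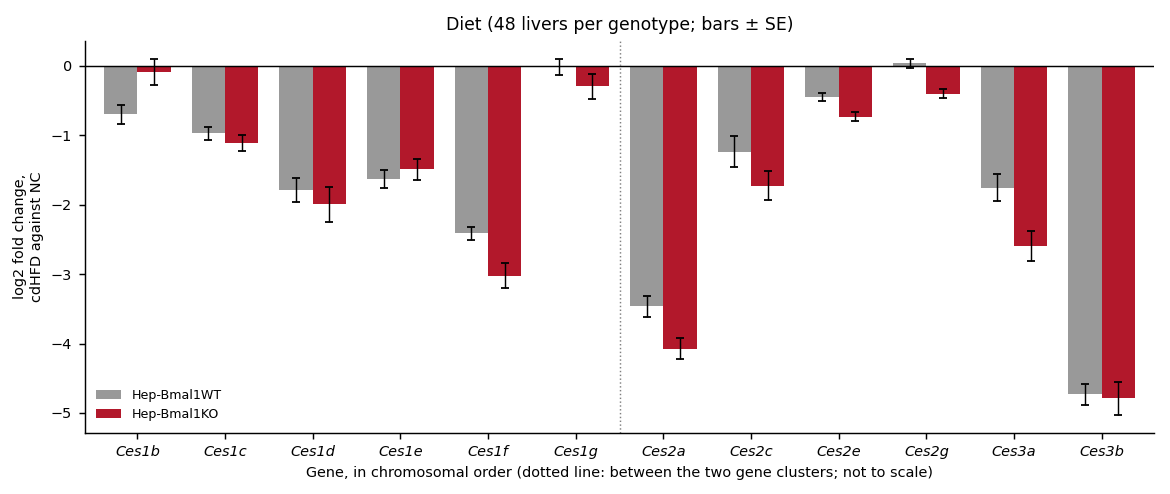
Log2 fold change of cdHFD against NC with its standard error (vertical axis) for the 10 members and for Ces2e and Ces2g, in chromosomal order (horizontal axis), in grey for the 48 livers labelled Hep-Bmal1WT and red for the 48 labelled Hep-Bmal1KO. Bars reach -4.73 and -4.79 for Ces3b and are -0.01 and -0.30 for Ces1g.

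The drop was shared by some but not all other carboxylesterase genes. Of the 10 Ces genes outside the members, 6 passed the count filter, of which 3 were lower and 1 was higher on cdHFD in the Hep-Bmal1WT groups and 4 were lower and 1 was higher in the Hep-Bmal1KO groups. Ces2e, which lies between Ces2c and Ces3a, ran from 171 to 327 CPM on NC and from 133 to 235 CPM on cdHFD in livers labelled Hep-Bmal1WT, with a log2 fold change of -0.44 (SE 0.06). Ces2g, in the same stretch, ran from 28.5 to 53.1 CPM and from 25.2 to 56.2 CPM, so the array that holds Ces2a and Ces3b also held genes whose diets overlapped.

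The cells of the liver differed between diets too. The summed CPM of 4 hepatocyte markers (Alb, Apoa1, Ttr, Serpina1c) ran from 91034 to 170042 on NC and from 65309 to 98926 on cdHFD in livers labelled Hep-Bmal1WT, and all 4 were lower on cdHFD in both genotypes, with median log2 fold changes of -1.17 and -1.06. Kupffer cell markers (Clec4f, Cd5l, Adgre1) summed to 78.03 to 162 CPM on NC and 412 to 1002 CPM on cdHFD in the same livers, and stellate cell and fibroblast markers (Col1a1, Col3a1, Dcn) to 123 to 260 CPM and 498 to 1175 CPM, with 3 of 3 higher in each list and genotype. In bulk liver, fewer hepatocytes and less mRNA per hepatocyte cannot be told apart, and the part of cell makeup in the diet values was not tested. In the Hep-Bmal1WT groups 7 of the 10 members had log2 fold changes below that hepatocyte median, and Ces1b, Ces1c, and Ces1g lay above it. The 4 markers themselves spread from -0.90 (Apoa1) to -2.34 (Serpina1c) in these groups. Only Ces1f, Ces2a, and Ces3b lay below all 4, Ces1f narrowly.

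Other ester and lipid hydrolases also moved with diet. Of 14 listed genes, 13 were tested, of which 9 were lower and 2 higher on cdHFD in the Hep-Bmal1WT groups and 9 lower and 3 higher in the Hep-Bmal1KO groups. Aadac, a deacetylase of the endoplasmic reticulum, had log2 fold changes of -1.24 (SE 0.05) and -1.41 (SE 0.07), Lipc, hepatic lipase, -1.06 (SE 0.10) and -1.44 (SE 0.11), and Pon1, the secreted paraoxonase, -0.998 (SE 0.094) and -1.27 (SE 0.10). Lipe, hormone-sensitive lipase, had -1.12 and -0.69, and Bche, butyrylcholinesterase, -0.54 and -0.76. Abhd6 had -0.94 and -0.50, Abhd5 -0.31 and -0.50, and Pon3 -0.43 and -0.56. Lipa, the lysosomal acid lipase, was higher by 0.54 and 0.29, and Nceh1, a cholesteryl ester hydrolase, by 0.36 and 0.77. Of 10 listed transcription factors that act on drug or lipid metabolism, 7 were lower and 1 higher in the Hep-Bmal1WT groups and 5 lower and 1 higher in the Hep-Bmal1KO groups. Hnf4a, a factor of hepatocyte identity, had log2 fold changes of -0.81 (SE 0.06) and -0.77 (SE 0.06), the bile acid receptor gene Nr1h4 had -0.70 and -0.65, the xenobiotic receptor gene Nr1i3 had -0.63 and -0.51, and the stress factor Nfe2l2 had 0.83 and 0.72. The clock-controlled factors Tef and Hlf had -0.95 and -1.08, and -0.62 and -0.83, and Ppara had -0.57 in the Hep-Bmal1WT groups.

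The genotype comparison asked how hepatocyte Bmal1 deletion bears on the family, and its values chose the members. On NC, 4 of 10 members were lower in livers labelled Hep-Bmal1KO at an adjusted p of edgeR under 0.05 and none was higher, beside 12.2% of all genes tested that met this threshold, 5.31% lower and 6.89% higher. On cdHFD 8 of 10 were lower and none was higher, beside 9.54% of all genes tested, 4.98% lower and 4.56% higher. The median log2 fold change of the members was -0.25 on NC and -0.65 on cdHFD, against -0.01 and 0.01 over all genes tested. Without the 7 livers nearer the other label the counts were 5 and 8, and without replicate 2 of each group the cdHFD count was 4. On NC in females alone 2 members met the threshold, Ces1b and Ces3b.

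Ces1d was the most reduced member on cdHFD and the second on NC. On NC at ZT14 it stood at 1179, 1553, 1663, and 1851 CPM in livers labelled Hep-Bmal1WT and at 266, 355, 721, and 844 CPM in livers labelled Hep-Bmal1KO. At ZT22 the values were 1219, 1413, 1508, and 1549.7 CPM against 195, 208, 598, and 749 CPM. Neither time had any overlap, and ZT2 had none either. At ZT6 the labels overlapped, with 392, 701, 776, and 999 CPM against 397, 435, 752, and 1315 CPM, where the lowest Hep-Bmal1WT and the highest Hep-Bmal1KO value belong to livers nearer the other label. The group medians on NC were 1085 and 430.0 CPM, and the log2 fold change was -1.13 (SE 0.20), or -1.38 without the 7 livers. Within sexes it was -1.81 (SE 0.23) in males and -0.68 (SE 0.19) in females, where it did not meet the threshold.

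On cdHFD Ces1d ran from 78.2 to 774 CPM with a median of 339 in livers labelled Hep-Bmal1WT and from 39.4 to 468 CPM with a median of 115 in livers labelled Hep-Bmal1KO. At ZT18 the livers labelled Hep-Bmal1WT held 355, 363, 502, and 575.5 CPM and those labelled Hep-Bmal1KO 104, 177, 177, and 209 CPM, with no overlap, as also at ZT6 and ZT22. The log2 fold change was -1.33 (SE 0.24), or -1.51 without the 7 livers. Its next neighbour Ces1e, egasyn, went the same way, with log2 fold changes of -0.80 (SE 0.12) on NC and -0.66 (SE 0.15) on cdHFD. On NC at ZT2 Ces1e stood at 66.5, 92.1, 98.5, and 104 CPM in livers labelled Hep-Bmal1WT and at 28.5, 47.2, 47.8, and 52.1 CPM in livers labelled Hep-Bmal1KO, which did not overlap.

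Ces1b, the first member of the array, was the most reduced on NC. At ZT2 it stood at 76.03, 76.9, 79.1, and 109.3 CPM in livers labelled Hep-Bmal1WT and at 19.7, 22.9, 32.1, and 37.2 CPM in livers labelled Hep-Bmal1KO, with no overlap. At ZT10 it stood at 88.3, 106.6, 115.5, and 132.5 CPM against 20.8, 35.4, 55.1, and 134.4 CPM, where the highest Hep-Bmal1KO value belongs to a liver nearer the other label. The log2 fold change on NC was -1.35 (SE 0.20), or -1.69 without the 7 livers, and on cdHFD -0.73 (SE 0.12), or -0.85 without them.

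The count of times at which all 4 livers labelled Hep-Bmal1KO lay below all 4 labelled Hep-Bmal1WT put Ces1b, Ces1d, and Ces1e together. On NC each of these 3 genes did so at ZT2, ZT14, and ZT22 and no other member did at any time, beside 1.54%, 4.50%, and 3.08% of all genes tested at those times and 2.19%, 2.59%, and 1.90% at ZT6, ZT10, and ZT18. The NC livers nearer the other label were all taken at ZT6, ZT10, and ZT18. Without them Ces1b and Ces1e separated at these times too, Ces1b at ZT18 from 49.8 CPM up against 36.1 CPM down. Ces1d then separated at ZT10 and ZT18 but not at ZT6, where 701 and 752 CPM crossed. Fewer livers separate more easily, and leaving these out is not independent of genotype. On cdHFD Ces1b and Ces1d did so at 3 of 6 times, Ces1f, Ces1g, and Ces3a at 2, and Ces1e and Ces2c at 1, beside 2.28%, 3.68%, 1.94%, 1.21%, 3.43%, and 3.84% of all genes tested from ZT2 to ZT22. No member had all Hep-Bmal1KO livers above all Hep-Bmal1WT livers at any time.

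**Figure D3:**
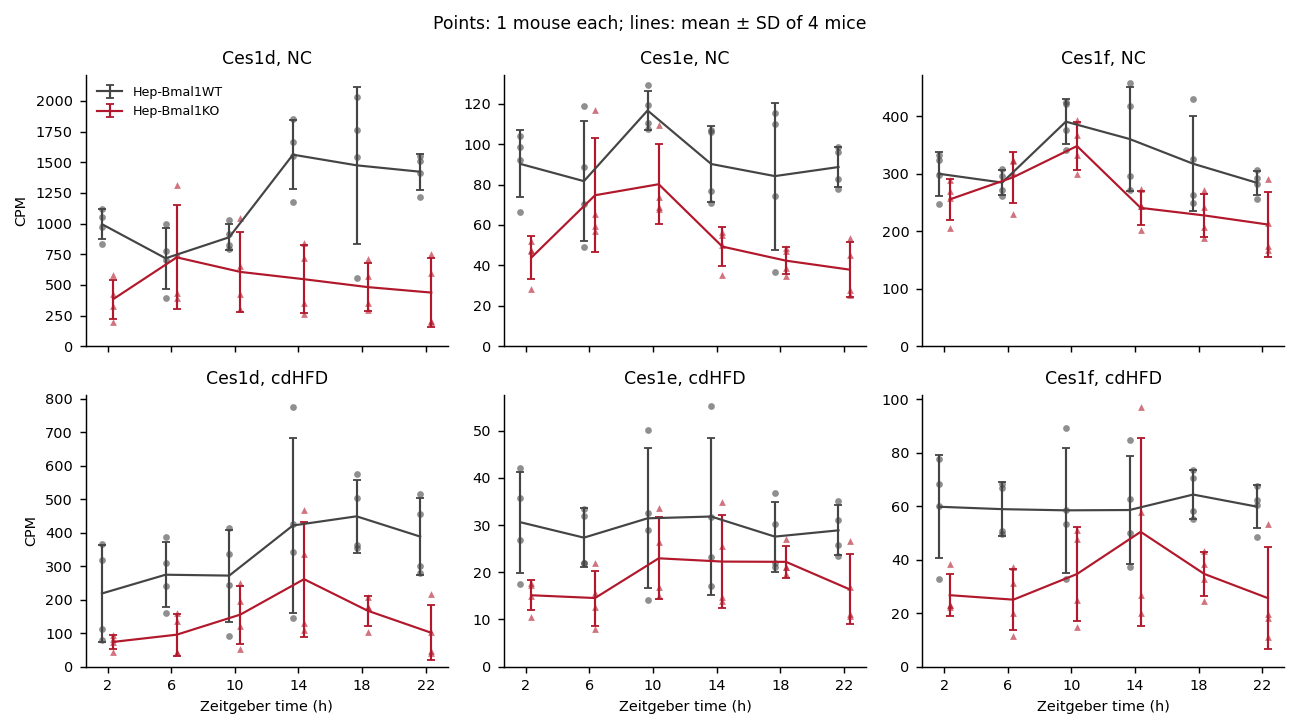
CPM of the neighbours Ces1d, Ces1e, and Ces1f against Zeitgeber time in hours on NC (upper row) and cdHFD (lower row), with 1 point per mouse and lines at the mean ± SD of 4 mice, in grey for livers labelled Hep-Bmal1WT and red for those labelled Hep-Bmal1KO. On NC the Hep-Bmal1WT means of Ces1d run from 717 CPM at ZT6 to 1562 CPM at ZT14. The Hep-Bmal1KO means run from 383 CPM at ZT2 to 725 CPM at ZT6.

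Ces1f, Ces1g, and Ces1c completed the array with smaller values on NC. Their log2 fold changes were -0.31 (SE 0.07), -0.37 (SE 0.17), and -0.07 (SE 0.12) on NC and -0.91 (SE 0.18), -0.64 (SE 0.12), and -0.20 (SE 0.08) on cdHFD. Ces1f ran from 32.7 to 89.2 CPM in livers labelled Hep-Bmal1WT on cdHFD and from 10.9 to 97.2 CPM in livers labelled Hep-Bmal1KO, the last value from a liver nearer the other label, without which the highest was 57.8 CPM. Ces1c, the most abundant member, overlapped between labels at every time on both diets, where each set of livers held both sexes. On NC its means under the Hep-Bmal1WT and Hep-Bmal1KO labels were 2991 and 2570 CPM in males and 4519 and 4617 CPM in females. Ces1c met the threshold in males alone on NC. On cdHFD it did so in females alone and with sex as a covariate.

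The log2 fold changes of the Ces2 and Ces3 members over both sexes lay between -0.19 and 0.06 on NC and were lower on cdHFD, as a description, since the arrays were not tested against each other. On NC they were 0.04 (SE 0.10) for Ces2a, 0.02 (SE 0.27) for Ces2c, 0.06 (SE 0.19) for Ces3a, and -0.19 (SE 0.14) for Ces3b, and their summed CPM averaged 2236.3 CPM under the Hep-Bmal1WT label and 2235.8 CPM under the Hep-Bmal1KO label. In females alone Ces3b met the threshold on NC, with means of 389 ± 94.3 and 277 ± 45.02 CPM under these labels (SD, n = 12 each). On cdHFD they were -0.56 (SE 0.15), -0.47 (SE 0.11), -0.79 (SE 0.20), and -0.24 (SE 0.22), and the sum averaged 422 ± 155 CPM against 261 ± 121 CPM (SD, n = 24 each). Ces3a ran from 123 to 678 CPM in livers labelled Hep-Bmal1WT and from 54.1 to 528 CPM in livers labelled Hep-Bmal1KO on cdHFD, which overlapped. Of the 6 Ces genes tested outside the members, 1 was higher on NC and 1 lower on cdHFD in livers labelled Hep-Bmal1KO. Ces2e had a log2 fold change of 0.30 (SE 0.06) on NC, past the threshold of edgeR, and of 0.01 (SE 0.06) on cdHFD. Ces2g had 0.08 (SE 0.06) on NC and -0.35 (SE 0.07) on cdHFD, where it met the threshold.

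**Figure D4:**
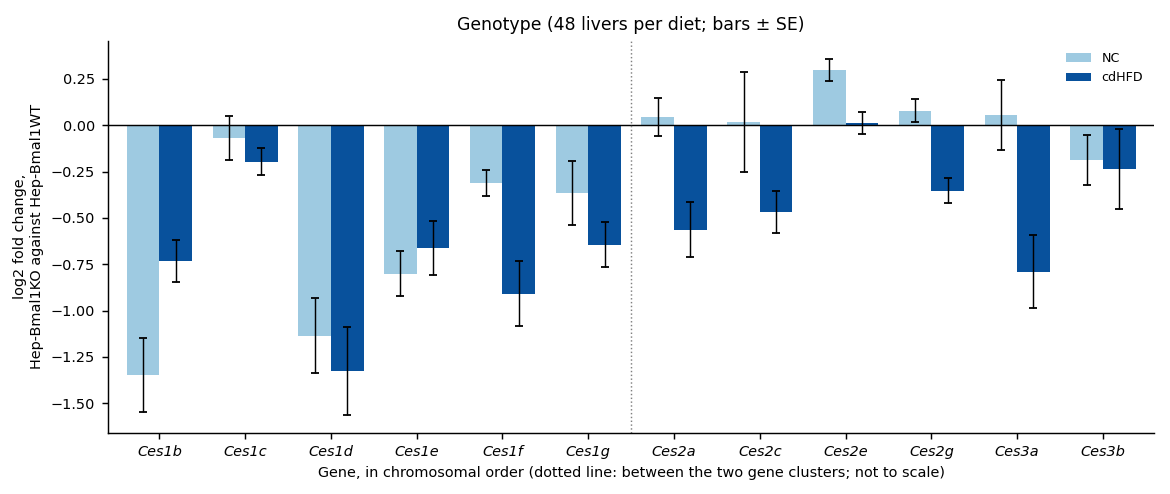
Log2 fold change of livers labelled Hep-Bmal1KO against Hep-Bmal1WT with its standard error (vertical axis) for the 10 members and for Ces2e and Ces2g, in chromosomal order (horizontal axis), in light blue on NC and dark blue on cdHFD, 48 livers per diet. Ces1b, Ces1d, and Ces1e lie at -0.66 or lower on both diets, while Ces2a, Ces2c, and Ces3a lie near 0 on NC and between -0.47 and -0.79 on cdHFD.

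Cell markers were also compared between labels. On NC 1 of 4 hepatocyte markers was lower in livers labelled Hep-Bmal1KO, Alb with a log2 fold change of -0.83, the summed CPM had medians of 131513 and 95564, and no Kupffer, stellate cell and fibroblast, endothelial, cholangiocyte, or leukocyte marker met the threshold. On cdHFD 1 of 4 hepatocyte markers was lower, 3 of 3 stellate cell and fibroblast markers were higher with a median of 0.49, and the hepatocyte sums had medians of 83179 and 74546 CPM. On the same diet 1 of 2 cholangiocyte markers was higher (Epcam, 1.15, SE 0.24), 1 of 3 Kupffer cell markers was lower (Clec4f, -0.35, SE 0.08), and no endothelial or leukocyte marker met the threshold. The part of these shifts in the members' values was not tested. Among the 13 other hydrolases tested, 3 were lower and 3 higher on NC and 3 lower on cdHFD, with Abhd6, a monoacylglycerol hydrolase, at -0.96 (SE 0.13) and -0.52 (SE 0.09), and Lipc at 0.55 (SE 0.10) on NC. Among the 10 transcription factors, 4 were lower on NC and 5 on cdHFD, with Ppara at -0.52 (SE 0.13) on NC and Dbp, a direct output of the clock, at -0.72 (SE 0.23) on cdHFD.

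The genotype difference was also set out between diets over all 96 livers, as a description, since it is made from the genotype values that chose the members. Ces2a had an interaction of -0.61 (SE 0.18), from means of 623 and 646 CPM in livers labelled Hep-Bmal1WT and Hep-Bmal1KO on NC and of 56.3 and 38.8 CPM on cdHFD. It was the 1 member that met the threshold of edgeR, beside 2.97% of all genes tested, 1.95% with a negative and 1.02% with a positive term. The interactions of Ces1f, Ces3a, and Ces1b were -0.60 (SE 0.19), -0.85 (SE 0.27), and 0.62 (SE 0.23). DESeq2 counted 3 members (Ces1f, Ces2a, Ces3a), edgeR counted 4 without the 7 livers nearer the other label (these 3 and Ces1b), and leaving out replicate 1, 2, or 3 of each group left 0.

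Rhythms over the day were counted in each group beside the share of all genes tested. With 10 members, the counts were not tested against that share. Among the 24 livers of a group, a rhythm was called where a cosinor test, JTK_CYCLE, or edgeR's test of paired cosine and sine terms (period 24 hours) had an unadjusted p under 0.01. In livers labelled Hep-Bmal1WT on NC, 1 of 10 members was rhythmic, Ces1d, beside 22.0% of all genes tested (21.1% at an adjusted p under 0.05 in any of the 3 tests). Its amplitude was 0.54 (SE 0.13) on the log2 scale with a peak at 18.1 hours (SE 0.91), and its smallest adjusted p over the 3 tests was 0.0028. All 4 livers at ZT10 lay between 791 and 1031 CPM and all 4 at ZT14 between 1179 and 1851 CPM, with no overlap. At ZT18, the time nearest the fitted peak, they stood at 560, 1543, 1762, and 2034 CPM. The lowest, from a liver nearer the other label, lay below the range of ZT10. Pairs of times here and below were picked after the calls, and the share of genes that separate so was not counted.

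In livers labelled Hep-Bmal1KO on NC, 2 of 10 members were rhythmic, Ces1e and Ces1f, beside 10.9% of all genes tested (4.62% after adjustment). Ces1e had an amplitude of 0.53 (SE 0.10) with a peak at 8.86 hours (SE 0.75), and Ces1f an amplitude of 0.32 (SE 0.07) with a peak at 8.51 hours (SE 0.82), with smallest adjusted p of 0.0049 and 0.0127 over the cosinor, JTK_CYCLE, and edgeR tests. Ces1e stood at 67.9, 69.1, 74.03, and 109.6 CPM at ZT10 and at 25.4, 27.7, 45.02, and 53.5 CPM at ZT22, without overlap, the highest value at ZT10 being from a liver nearer the other label. Ces1f likewise ran from 299 to 394 CPM at ZT10 and from 168 to 289.8 CPM at ZT22. A call in 1 label and not in the other is no test of a difference, and the amplitudes of the labels on NC differed by -0.19 (SE 0.25) for Ces1d, 0.40 (SE 0.16) for Ces1e, and 0.12 (SE 0.10) for Ces1f, as a description. These amplitudes include the livers nearer the other label and were not refitted without them. For Ces1e such livers held 116.7 CPM at ZT6 and 109.6 CPM at ZT10 under the Hep-Bmal1KO label. Under the Hep-Bmal1WT label they held 49.2 CPM at ZT6 and 36.9 CPM at ZT18. In livers labelled Hep-Bmal1KO Ces1d peaked nominally at 9.92 hours without passing any of the 3 tests.

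On cdHFD 1 of 10 members was rhythmic in each genotype, beside 18.5% of all genes tested in the Hep-Bmal1WT group and 9.79% in the Hep-Bmal1KO group (16% and 3.96% after adjustment). Ces2c was called in livers labelled Hep-Bmal1WT, by JTK_CYCLE alone, with a peak at 14.4 hours. Its 4 livers at ZT14 lay between 14.0 and 16.9 CPM and its 4 at ZT2 between 4.68 and 10.1 CPM. Ces1d was called in livers labelled Hep-Bmal1KO, with an amplitude of 0.82 (SE 0.23) and a peak at 14.3 hours (SE 1.09). Neither call held after adjustment (0.0793 and 0.0876 as the smallest adjusted p of the cosinor, JTK_CYCLE, and edgeR tests), and the Ces1d call was lost without the livers nearer the other label, of which this group held 1, at ZT14 with 468 CPM.

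Sex was not used to choose the members. Over all 96 livers, 5 of 10 members were lower in males and 3 were higher, beside 17.1% of all genes tested that differed, 8.98% lower and 8.14% higher. All 5 that were lower (Ces1b, Ces1c, Ces1d, Ces1e, Ces1g) are Ces1 genes, and all 3 that were higher (Ces2c, Ces3a, Ces3b) belong to the other array. Ces1f and Ces2a were not called, with log2 fold changes of -0.19 (SE 0.09, adjusted p = 0.164) and 0.12 (SE 0.09, adjusted p = 0.461) in edgeR's test. This split is that of the called members and was not tested over the whole arrays. Of the 6 other Ces genes tested, 2 were higher and 1 lower in males. Ces2g, between Ces2c and Ces3a, had lower medians in males in all 4 groups, with overlapping ranges. On NC its medians in males and females were 36.1 and 39.8 CPM under the Hep-Bmal1WT label. Under the Hep-Bmal1KO label they were 36.1 and 43.5 CPM.

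Ces3a, over all livers, had the largest male excess. On NC it ran from 790.0 to 1971 CPM (median 1587) in males labelled Hep-Bmal1WT and from 522 to 948 CPM in females with a median of 720.3, and from 926 to 2049.9 CPM in males labelled Hep-Bmal1KO against 419.7 to 882 CPM in females. All 12 Hep-Bmal1KO males and 11 of 12 Hep-Bmal1WT males were above every female of their group. On cdHFD the medians were 435 and 231 CPM in the Hep-Bmal1WT group and 228 and 131 CPM in the Hep-Bmal1KO group. The log2 fold change of males against females over all livers was 0.99 (SE 0.09, adjusted p = 2.95e-15 in edgeR's test). Ces2c followed with 0.86 (SE 0.12), its medians on NC being 40.2 and 13.2 CPM in males and females labelled Hep-Bmal1WT and 41.6 and 15.4 CPM in those labelled Hep-Bmal1KO, and Ces3b had 0.72 (SE 0.10).

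Ces1c went the other way. On NC it ran from 2393 to 3370 CPM in males labelled Hep-Bmal1WT and from 3364 to 5553 CPM in females, and from 1937 to 3285 CPM in males labelled Hep-Bmal1KO and from 3675 to 5402 CPM in females. Males and females did not overlap in the Hep-Bmal1KO group, and 11 of 12 males lay below all females in the Hep-Bmal1WT group. The log2 fold change was -0.56 (SE 0.04, adjusted p = 7.71e-22 in edgeR's test). Ces1d had -0.76 (SE 0.12), Ces1g -0.62 (SE 0.08), Ces1b -0.31 (SE 0.11, adjusted p = 0.0358), and Ces1e -0.25 (SE 0.09, adjusted p = 0.0425) in the same edgeR test, and the last 2 lost their call without any 1 of the 4 replicates.

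**Figure D5:**
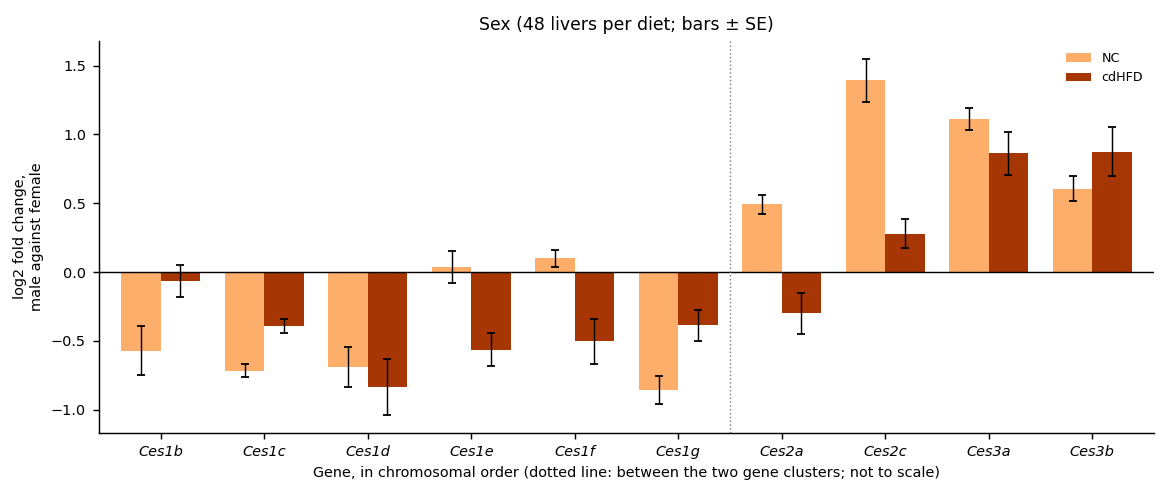
Log2 fold change of males against females with its standard error (vertical axis) for the 10 members in chromosomal order (horizontal axis), in light orange on NC and dark orange on cdHFD, 48 livers per diet. Ces1c, Ces1d, and Ces1g are below 0 and Ces2c, Ces3a, and Ces3b above 0 on both diets, while Ces2a lies at 0.49 on NC and -0.30 on cdHFD.

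The sex difference was set out by diet after these values had been seen. On NC 8 of 10 members differed by sex, 4 lower and 4 higher in males, beside 18.5% of all genes tested (9.91% lower, 8.57% higher), and on cdHFD 6 did, 4 lower and 2 higher, beside 5.63% (3.31% lower, 2.33% higher). The sex difference itself differed between diets for 6 of 10 members, beside 7.68% of all genes tested (3.58% with a negative and 4.10% with a positive term). Ces2c had the largest interaction (-1.11, SE 0.20, adjusted p = 2.79e-05 in edgeR's test), with a log2 fold change of 1.39 (SE 0.16) on NC and 0.28 (SE 0.11) on cdHFD. Ces2a followed (-0.78, SE 0.16, adjusted p = 0.000472 in edgeR's test), with 0.49 (SE 0.07) on NC and -0.30 (SE 0.15) on cdHFD, where it was not called. Its medians on NC were 734 CPM in males and 477 CPM in females labelled Hep-Bmal1WT, and on cdHFD 51.5 and 66.9 CPM.

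The other 4 interactions were smaller. Ces1e and Ces1f had -0.60 each (SE 0.17), with log2 fold changes near 0 on NC, 0.04 (SE 0.12) and 0.10 (SE 0.06), and of -0.56 (SE 0.12) and -0.50 (SE 0.16) on cdHFD. Ces1c had 0.33 (SE 0.07) and Ces1g 0.48 (SE 0.15), both lower in males on each diet and less so on cdHFD. Without replicate 2 or without replicate 4 of each group, 3 of the 6 remained past the threshold. Of the cell markers, 2 of 4 hepatocyte markers were lower and 1 higher in males, 1 of 3 stellate cell and fibroblast markers was lower, and 3 of 3 endothelial and 2 of 2 leukocyte markers were lower in males over all livers, with median log2 fold changes of -0.24 and -0.49, and the part of these markers in the members' values was not tested. Among the listed hydrolases 7 were lower and 2 higher in males, with Bche at -0.51 (SE 0.04), and among the transcription factors 3 were lower, with Nr1i3 at -0.57 (SE 0.08).

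The genotype difference was compared between the sexes within each diet by an interaction term. It stands as a description, since it is made from the genotype values that chose the members. On NC 0 of 10 members passed in edgeR's test, beside 0.264% of all genes tested, although 7 had an unadjusted p under 0.05 and DESeq2 called 1, Ces1d. Ces1d ran from 392 to 2034 CPM in males and 560 to 1851 CPM in females labelled Hep-Bmal1WT, with medians of 1147 and 1042 CPM. In livers labelled Hep-Bmal1KO it ran from 195 to 435 CPM in males and from 425 to 1315 CPM in females, with medians of 318 and 714 CPM, and 11 of 12 males lay below all females. The interaction was -1.17 (SE 0.29), which did not meet the threshold of edgeR. Without the 7 livers nearer the other label it was -0.95 (SE 0.23), which met it. Those livers were placed by genes that differ by label, so leaving them out is not independent of genotype. On cdHFD 0 of 10 members passed in edgeR's test, 0 had an unadjusted p under 0.05, and DESeq2 called 0, beside 0% of all genes tested.

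Some pairs of members varied together from liver to liver and others in opposite directions. After each group's mean at each time was taken out of log2 CPM, the 45 pairs of members had correlations over the 96 livers from -0.63 to 0.84 with a median of 0.19, given as a description since all share the same libraries and sex was not taken out. The highest were Ces1d with Ces1g (0.84), Ces1c with Ces1g (0.80), Ces1e with Ces1f (0.80), Ces1d with Ces1e (0.79), and Ces3a with Ces3b (0.79), each within 1 array. The lowest was Ces1c with Ces2c (-0.63), which was -0.28 in males and -0.14 in females alone. In males and females alone, Ces1d with Ces1g had 0.75 and 0.73, Ces1c with Ces1g 0.56 and 0.64, Ces1e with Ces1f 0.78 and 0.79, Ces1d with Ces1e 0.74 and 0.84, and Ces3a with Ces3b 0.62 and 0.56. Ces1c with Ces3a had -0.62 over all livers but 0.16 in males and 0.23 in females.

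Directions were compared with reads of neighbours summed, since a sum does not depend on how reads were split between the genes in it. A sum follows its more abundant gene, so that of Ces1d and Ces1e does not show the direction of Ces1e. Any reads left out because they aligned to several genes would be missing from a sum too. Ces1d and Ces1e together had log2 ratios of Hep-Bmal1KO to Hep-Bmal1WT means of -1.12 on NC and -1.19 on cdHFD, and of cdHFD to NC of -1.79 and -1.86 in the Hep-Bmal1WT and Hep-Bmal1KO groups. Ces3a and Ces3b together had -0.02 and -0.73 for genotype and -2.16 and -2.87 for diet. The 5 Ces1 members without Ces1c had -0.87 and -0.98 for genotype, and with Ces1c -0.28 and -0.34. All 10 members summed had -0.19 and -0.39 for genotype and -1.41 and -1.60 for diet. The 4 Ces2 and Ces3 members summed had -0.00034 on NC and -0.69 on cdHFD for genotype, and Ces2a with Ces2c had 0.05 and -0.53. The ratio of Ces1d to Ces1e within a liver had a median of 12.0 and 8.81 on NC and 11.7 and 7.37 on cdHFD in livers labelled Hep-Bmal1WT and Hep-Bmal1KO, with ranges of 3.11 to 26.2 over all groups that overlapped.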

How the data were processed

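Liver mRNA of 96 mice was measured by BRB-seq. Alignment was to mm10 by STAR, and the authors deposited a table of raw, unnormalized counts by Ensembl gene. HTSeq and featureCounts are both named for counting, while their versions, the annotation release, and the collapsing of molecular identifiers are not given in the sources used here. Reads were treated as counts, and precision set by depth (1861740 to 9718615 reads per liver) covers counting error only. Mice of both labels were littermates, but which livers share a litter is not given in the sources used here, and each liver was taken as 1 animal.

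The 10 members, the other Ces genes, 14 other ester and lipid hydrolases with their coactivator, 10 transcription factors, and the cell markers were chosen with earlier results of these data known. All 10 members are named; genes of the hydrolase and transcription factor lists are named where past the threshold and changed by 0.5 or more on the log2 scale, and the other Ces genes and the markers are given mainly as counts and ranges. Cell marker lists were hepatocyte, Kupffer, stellate and fibroblast, endothelial, cholangiocyte, leukocyte, adipocyte, intestinal epithelium, and kidney. Results of the lists not described in the report are these. Epcam of 2 cholangiocyte markers was higher on cdHFD in both genotypes. Leukocyte markers were higher in 2 of 2 in the Hep-Bmal1WT groups and 1 of 2 in the Hep-Bmal1KO groups. Endothelial markers were higher in 2 and lower in 1 of 3 in both genotypes. Intestinal epithelium markers were higher in 2 of 2 tested, Vil1 and Fabp2. The adipocyte sum was 0 CPM in the median liver of every group. The 1 adipocyte marker tested was lower on cdHFD in livers labelled Hep-Bmal1WT. Both kidney markers were below the filter.

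Genes with 100 or more counts in all (15548) were tested in R 4.3.3 with edgeR 4.0.16 (TMM, robust quasi-likelihood fit, ZT as categories), with adjustment over all of them after Benjamini and Hochberg. DESeq2 1.42.0 gave an alternative test and variance-stabilized values for the rhythm tests. Amplitude and phase by label were fitted by least squares after the CircaCompare model. CPM is after TMM scaling, with the SD over livers, which includes variation over the day where times are pooled. Each liver was placed between the medians of both labels at its diet and ZT by 10 clock genes and by the 20 genes, members left out, that differed most by label at the other times of that diet, and 7 lay nearer the other label by both. Since these genes differ by label, leaving these livers out is not independent of genotype. Tests were checked on simulated counts. Alternatives were another tool, size factors, filters, sex as a covariate or alone, the 7 livers left out, and, by turns, the omission of each replicate number, which was given in accession order. The tests of sex within each diet and of sex by diet were added after seeing the data. Member sequences were not analysed here.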

Additional observations from a re-analysis of the deposited data

Results flagged for a closer look

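Of the 240 sets of 4 livers (10 members, 4 groups, 6 times), 11 held 1 value far from the other 3 by Dixon's 95% criterion, which chance alone gives in about 1 of 20 sets. In Ces1b the values were 11.5 CPM, the lowest at ZT22 in livers labelled Hep-Bmal1KO on NC, 109.3 CPM, the highest at ZT2 in livers labelled Hep-Bmal1WT on NC, and 17.9 CPM, the lowest at ZT6 in livers labelled Hep-Bmal1KO on cdHFD. In Ces1c the value was 2270.4 CPM, the highest at ZT10 in livers labelled Hep-Bmal1WT on cdHFD. In Ces1e they were 116.7 CPM at ZT6 and 109.6 CPM at ZT10, the highest in livers labelled Hep-Bmal1KO on NC, and both belong to livers nearer the other label. In Ces1f the value was 38.3 CPM, the highest at ZT2 in livers labelled Hep-Bmal1KO on cdHFD. In Ces2a they were 679.5 CPM, the lowest at ZT14 in livers labelled Hep-Bmal1KO on NC, and 104.7 CPM, the highest at ZT22 in livers labelled Hep-Bmal1KO on cdHFD. In Ces2c they were 62.5 CPM, the highest at ZT14 in livers labelled Hep-Bmal1WT on NC, and 9.91 CPM, the highest at ZT2 in livers labelled Hep-Bmal1KO on cdHFD.

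Effects that differed between groups by a test of the difference itself were the sex by diet terms of Ces1c (0.33), Ces1e (-0.60), Ces1f (-0.60), Ces1g (0.48), Ces2a (-0.78), and Ces2c (-1.11), all past the threshold in edgeR's test. The genotype by diet term of Ces2a (-0.61 on the log2 scale) also met the threshold. It is made from the genotype differences that chose the members, so it stands as a description. It did not meet the threshold without replicate 1, 2, or 3 of each group, with no filter beyond 1 count, or in males alone.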

How the results depend on the processing

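Of the counts of members past a threshold recomputed under an alternative, 110 stayed within 1.5 times the reported count and 28 moved. The counts for diet in both genotypes, for sex, for rhythms on NC, and for genotype by sex on cdHFD moved under none of the alternatives run. The count for genotype was 2 on NC in females alone (Ces1b and Ces3b) and 4 to 8 on cdHFD with each replicate left out. For genotype by diet it was 3 with DESeq2, 0 with no filter beyond 1 count, 4 without the 7 livers nearer the other label, 3 with sex as a covariate, 2 in females alone, and 0 to 1 with each replicate left out. In males alone the genotype by diet count stayed at 1, but the member was Ces3a in place of Ces2a. For genotype by sex on NC it was 1 with DESeq2, 6 with no filter beyond 1 count, and 1 without the 7 livers. For sex by diet it was 3 to 4 with each replicate left out. For rhythms in livers labelled Hep-Bmal1WT on cdHFD it was 0 after adjustment, 0 with the cosinor test alone, 0 with edgeR alone, and 0 to 1 with each replicate left out, and in livers labelled Hep-Bmal1KO on cdHFD 0 after adjustment, 0 with JTK_CYCLE alone, 0 without the 7 livers, and 0 to 3 with each replicate left out. The 1 called value that changed sign was the sex difference of Ces1e, 0.037 on NC alone. Of 358 uncalled member values, 37 changed sign. The causes were not tested. No paired analysis was possible because the labels carry no replicate numbers and each liver is a different mouse. The numbers used for omission were given in accession order and mostly follow sex (1 and 2 male, 3 and 4 female), so leaving 1 out also unbalances the sexes. Depth was not varied.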

Other observations

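Carboxylesterase genes with few counts outside the 10 members had wide ranges. Ces2b, which lies between Ces2a and Ces2c, ran from 0.125 to 3.56 CPM in males and from 0 to 0.215 CPM in females labelled Hep-Bmal1WT on NC, from 0.178 to 9.05 CPM in males and from 0 to 0.523 CPM in females labelled Hep-Bmal1KO on NC, and stayed at or below 0.480 CPM in every liver on cdHFD. Ces4a, at the end of the same array, on NC reached 8.85 CPM under the Hep-Bmal1WT label and 3.01 CPM under the Hep-Bmal1KO label and stayed at or below 0.615 CPM on cdHFD.

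The genes whose deviations from the group mean at each time most resembled those of Ces1d, among 8990 genes with a mean of at least 5 CPM over 96 livers, were Slc47a1 (correlation 0.80), Aldh3a2 (0.79), Hadh (0.79), Homer2 (0.78), and Acot13 (0.77), given as a description of libraries that the genes share. Without the 7 livers nearer the other label these correlations lay between 0.74 and 0.79.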
